A study of Homo sapiens with 21 samples.

Results

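The change in libraries labelled for 3 SR splicing factors together was set, gene by gene, against the change in libraries labelled for SRSF3 alone. For each gene the log2 fold change of 3XSR against 3XCTL (the 3XSR effect) and that of 1xSRSF3 against 1xCtrl (the 1xSRSF3 effect) were taken, and the second was subtracted from the first. This difference of effects used 12 of the 21 libraries of the series, 3 in each of the 4 groups. All were polyA-selected RNA-seq libraries of HCC1806, an established human triple-negative breast cancer cell line grown as an adherent culture. Libraries titled 3XSR have the genotype label 3xSR, which the series title spells out as SRSF2, SRSF3 and SRSF7, and those titled 3XCTL are labelled control. Libraries titled 1xSRSF3 are labelled SRSF3 OE, and those titled 1xCtrl are labelled single plasmid control. No other agent or treatment is named for any of them. The vectors, their promoters and whether a line came from 1 clone are not given in the sources used here. 3XSR and 3XCTL stand in one count table and 1xSRSF3 and 1xCtrl in the other, each with its own control, so a shift of a whole table cancels in the difference of effects. It does not cancel in a comparison of levels across the tables, where table and line cannot be told apart.

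SR proteins carry RNA-recognition motifs and a domain rich in arginine and serine. They bind exonic and intronic enhancer sequences, recruit the U1 and U2 particles to splice sites, and several also take part in mRNA export, translation and decay. SRSF3 and SRSF7 are small shuttling members that act as adaptors for the export factor NXF1, whereas SRSF2 stays mostly in the nucleus. SR protein genes limit their own output through poison exons, so added protein need not raise the total mRNA of the same gene.

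The 12 libraries held between 143269192 and 236495865 counts, and levels below are CPM, counts per M (SI mega) of TMM-scaled library size. Replicate libraries differed by more than counting error, with Pearson's r across genes from 0.979 to 0.986. The library 1xCtrl replicate 2 stood apart: its chi-square per degree of freedom was 194 against replicate 1 and 275 against replicate 3, where those 2 gave 26.2 against each other. The breast epithelial markers summed to between 5375 and 7250 CPM of unscaled library size, with EPCAM between 527 and 702. Of the receptors whose low level defines triple-negative tumours, PGR lay between 0 and 1.48 CPM, ESR1 between 6.24 and 9.30 and ERBB2 between 95.3 and 187. Among fibroblast and endothelial markers most of the signal was LUM and COL1A1, with CDH5, PDGFRA and PECAM1 at 0.152 CPM or less. Leukocyte markers summed to between 9.61 and 32.7 CPM, most of it CD68, with NKG7 and MS4A1 at 0 in all 12. CD68, a lysosomal protein gene not confined to leukocytes, rose in both effects (log2 fold changes 1.07 and 1.30), whereas CSF1R fell in 3XSR (-0.86) and CD14 in 1xSRSF3 (-1.18). The fibroblast and endothelial sum was 48.1 to 51.9 CPM in 3XCTL, 23.5 to 26.3 in 3XSR, 29.7 to 35.4 in 1xCtrl and 14.9 to 16.2 in 1xSRSF3, and the part of either list in the results was not tested. No label says that replicates came from separate cultures, so the p-values measure only the spread between these libraries, which may be technical. In bulk RNA, fewer cells expressing a gene and less RNA per cell cannot be told apart.

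The targeted genes were examined first. SRSF3 (chromosome 6, 36594353 to 36605600 of GRCh38) measured 400, 443 and 389 CPM in 3XCTL and 509, 499 and 511 in 3XSR. In the other table it measured 376, 341 and 414 CPM in 1xCtrl and 535, 506 and 511 in 1xSRSF3. Every overexpressing library was above every control of its table. SRSF3 rose by a log2 fold change of 0.30 (SE 0.07) in 3XSR and of 0.46 (SE 0.07) in 1xSRSF3 (edgeR quasi-likelihood F tests, Benjamini-Hochberg adjusted p = 0.0111 and 0.000614). A gene is called where this adjusted p is under 0.05, and where 2 effects stand together in parentheses the 3XSR effect comes first. The difference of effects on SRSF3 was -0.16, with a 95% interval from -0.38 to 0.07 (edgeR adjusted p = 0.381), so the data do not separate its rise in the 2 lines. Without 3XCTL replicate 3 the rise in 3XSR no longer passed.

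SRSF7 (chromosome 2, 38743599 to 38751494) measured 292, 305 and 283 CPM in 3XCTL, 381, 401 and 400 in 3XSR, 364, 359 and 372 in 1xCtrl and 370, 373 and 384 in 1xSRSF3. It rose in 3XSR (log2 fold change 0.43, SE 0.05), and in 1xSRSF3, where it was not a target, its change was 0.04 (SE 0.05). The difference of effects was 0.38 (interval 0.23 to 0.54, edgeR adjusted p = 0.00443). SRSF2 (chromosome 17, 76734115 to 76737374) was not raised in the libraries labelled 3XSR: it measured 398, 424 and 394 CPM in 3XCTL and 371, 397 and 387 in 3XSR (log2 fold change -0.07, SE 0.06, edgeR adjusted p = 0.436). SRSF2 shares exon bases with MIR636 and, on the other strand, with MFSD11, and whether counting used strand is not given. Because of SRSF2, every direction below is that of libraries labelled 3XSR.

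MYC, the transcription factor that the series sets beside the SR proteins, measured 97.3, 90.9 and 93.4 CPM in 3XCTL, 155, 156 and 159 in 3XSR, 131, 146 and 125 in 1xCtrl and 161, 153 and 156 in 1xSRSF3. It rose by 0.74 (SE 0.06) in 3XSR and by 0.23 (SE 0.06) in 1xSRSF3 on the log2 scale, a difference of 0.51 (interval 0.32 to 0.70, edgeR adjusted p = 0.00257). The rise in 1xSRSF3 did not pass with total counts alone, without 1xCtrl replicate 1 or without 1xSRSF3 replicate 1. Both overexpressing lines had a mean of 157 CPM, and the controls had means of 93.9 ± 3.24 and 134 ± 10.9 CPM (SD, n = 3).

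Of 13 SR protein and TRA2 genes tested, 5 rose and 1 fell in 3XSR, and 3 rose and 1 fell in 1xSRSF3. Of all genes tested, 11.6% rose and 8.81% fell in 3XSR, and 12.8% rose and 14.9% fell in 1xSRSF3. The falls were not above these shares. The rises in 3XSR include the targets SRSF3 and SRSF7, and those in 1xSRSF3 include SRSF3. TRA2B, a splicing activator, rose in both (0.25 and 0.21), whereas its paralogue TRA2A fell in 1xSRSF3 (-0.01 and -0.47), a difference of 0.47 that passed. SRSF8 differed the other way (-0.23 and 0.17, difference -0.41). Its fall in 3XSR was lost in each fit without a library other than 1xCtrl replicate 2 or 3, and its difference was lost without 1xCtrl replicate 1, 1xSRSF3 replicate 1, 3XCTL replicate 2 or 3XSR replicate 2 or 3. SRSF6 (0.35) and SRSF11 (0.23) rose in 3XSR, and neither difference passed the test. The 3XSR rises numbered 3 without 3XCTL replicate 1 or without 3XCTL replicate 3. The 3 rises in 1xSRSF3 numbered 2 without 1xSRSF3 replicate 2 or 3XSR replicate 2 and 1 without 1xCtrl replicate 1, 1xCtrl replicate 2, 1xSRSF3 replicate 1 or 1xSRSF3 replicate 3.

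Across all genes, the 2 effects overlapped in part. Of 23572 genes tested, 4817 (20.4%) changed in 3XSR, 2740 higher (11.6%) and 2077 lower (8.81%). In 1xSRSF3, 6522 genes (27.7%) changed, 3014 higher (12.8%) and 3508 lower (14.9%). The same direction was called in both for 2236 genes (9.49%), of which 1110 were higher (4.71%) and 1126 lower (4.78%). These were 46.4% of the 3XSR calls and 34.3% of the 1xSRSF3 calls. Opposite directions were called for 297 genes (1.26%), 229 raised in 3XSR and lowered in 1xSRSF3 and 68 the reverse. The effects themselves differed for 2940 genes (12.5%), for 1968 with a difference above 0 (8.35%) and for 972 with one below 0 (4.12%). Of these 2940 genes, 879 were called in 3XSR only, 1292 in 1xSRSF3 only, 113 in neither, 359 in both with the same sign and 297 in both with opposite signs.

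**Figure D1:**
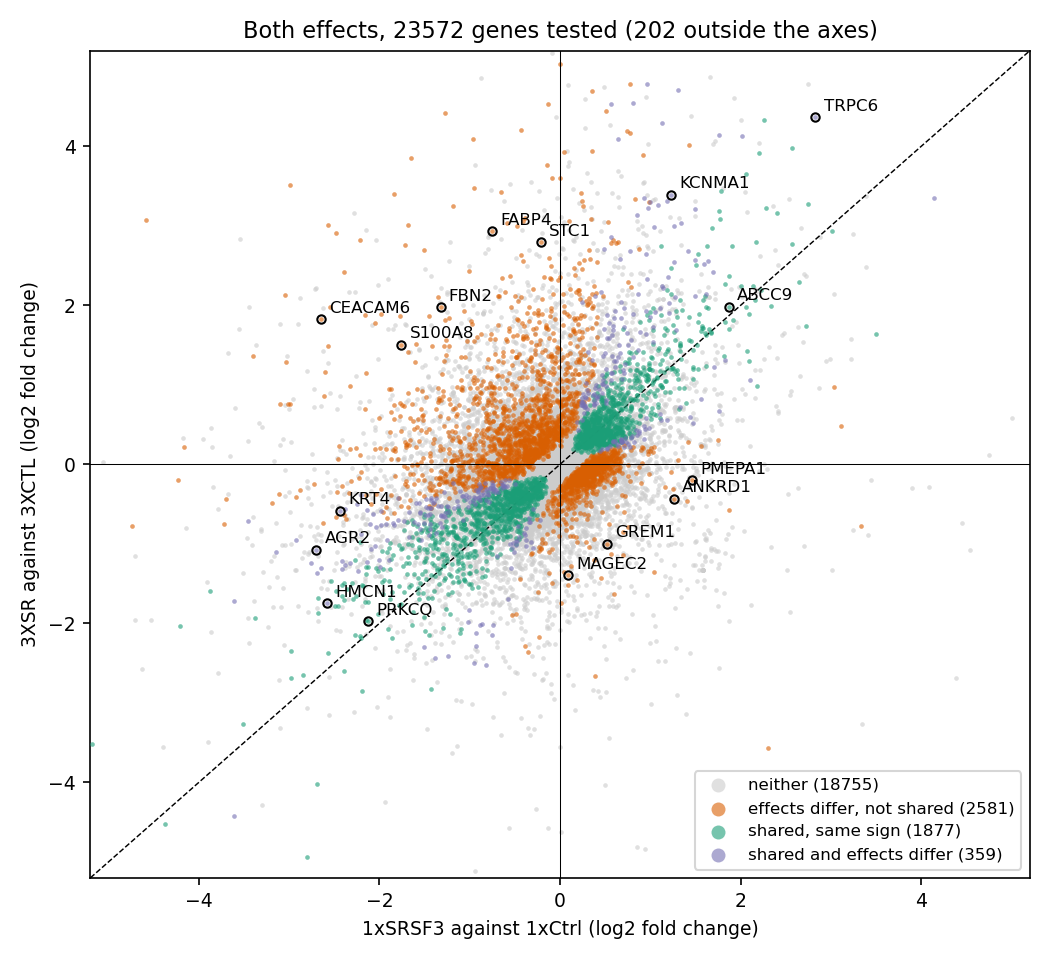
The 1xSRSF3 effect (horizontal) and the 3XSR effect (vertical), both as log2 fold change against their own control, for the genes tested inside the axes (202 lie outside); colours mark genes called the same way in both (1877, with 359 more whose effects also differ) and genes whose effects differ without being shared (2581). The dashed line is equality: TRPC6, ABCC9, PRKCQ and HMCN1 lie with both effects in 1 direction, and CEACAM6, S100A8 and FBN2 lie where the 3XSR effect is above 0 and the 1xSRSF3 effect below it.

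Pearson's r between the effects was 0.291 and Spearman's rho 0.36 across all genes tested, and over the 11461 genes at 5 CPM or more they were 0.524 and 0.477. These describe genes, which are not independent replicates, and the effects share no library. The median difference of all genes was 0.05 on the log2 scale. The number of differing genes depended on single libraries: it was 4912 without 1xCtrl replicate 2, 1821 without 1xSRSF3 replicate 3, 1867 without 3XSR replicate 2 and 1898 without 3XSR replicate 3. Differences above 0 made up 66.9% of them, 79.4% with total counts alone, 55.7% without 1xCtrl replicate 2 and 48.7% with each library's trend over GC content removed, where 6194 genes differed, 2889 of them among the 2940. The split over all genes therefore moved with the scaling. The opposite genes numbered 579 without 1xCtrl replicate 2, 177 without 1xSRSF3 replicate 3, 190 without 3XCTL replicate 1 or without 3XSR replicate 2, and 179 without 3XSR replicate 3.

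Among the shared genes, likeness was read from the interval of the difference, since a p-value that misses the threshold does not show it. For 1228 of the 2236 shared genes (54.9%, against 32.7% of all genes tested) this interval lay within a 1.5-fold change either way. For 359 (16.1%) the effects differed, with the larger one in 3XSR for 173 genes and in 1xSRSF3 for 186; 34 genes met both conditions. Another 683 met neither, and for these the data do not decide. Shared genes were more abundant, with medians of 26.8 CPM (higher in both) and 8.33 CPM (lower in both) against 4.21 CPM over all genes. Intervals are narrower at higher levels and calls favour narrow intervals, so nothing is read from 54.9% against 32.7%.

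Among genes with a mean of 5 CPM or more and libraries of a group within 3-fold, the shared rise with the highest smaller effect was that of TRPC6, a receptor-operated calcium channel subunit. It measured 1.06, 1.24 and 1.08 CPM in 3XCTL, 22.0, 23.9 and 23.7 in 3XSR, 7.01, 5.69 and 6.37 in 1xCtrl and 48.7, 41.9 and 44.5 in 1xSRSF3. Each overexpressing line was above its control, and 1xCtrl lay above 3XCTL. Of the 67 named genes, the libraries of 3XSR and 3XCTL did not overlap for 58 and those of 1xSRSF3 and 1xCtrl for 58, where 40.0% and 40.4% of all genes tested do not overlap; most of the 67 were chosen on these effects, so nothing is read from this. TRPC6 rose by 4.36 (SE 0.11) and 2.83 (SE 0.10) on the log2 scale, and the effects differed by 1.54 (interval 1.25 to 1.83, edgeR adjusted p = 2.82e-05). ABCC9, the sulfonylurea receptor subunit of ATP-sensitive potassium channels, measured 1.52, 1.74 and 1.47 CPM in 3XCTL, 6.62, 6.45 and 5.63 in 3XSR, 4.58, 4.69 and 5.61 in 1xCtrl and 19.0, 16.8 and 18.4 in 1xSRSF3. It rose by 1.98 and 1.87, a difference of 0.12 (interval -0.22 to 0.45). RGS4, which speeds the shut-off of G protein signals, rose by 2.27 and 1.83, and the gene for carboxypeptidase M by 2.36 and 1.87; both differences missed the threshold (edgeR adjusted p = 0.196 and 0.126). IL13RA2, the decoy receptor for interleukin 13, rose by 2.42 and 1.69, and its effects differed by 0.73 (edgeR adjusted p = 0.0155).

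Shared falls included PRKCQ, which encodes protein kinase C theta. It measured 13.3, 12.4 and 12.9 CPM in 3XCTL, 3.34, 2.96 and 3.51 in 3XSR, 5.87, 5.29 and 6.18 in 1xCtrl and 1.33, 1.25 and 1.4 in 1xSRSF3. PRKCQ fell by 1.98 in 3XSR and by 2.12 in 1xSRSF3 on the log2 scale, a difference of 0.15 (interval -0.15 to 0.44). HMCN1, a large matrix protein called hemicentin, measured 32.1, 33.6 and 34.2 CPM in 3XCTL, 10.5, 9.38 and 10.1 in 3XSR, 27.4, 21.4 and 26.4 in 1xCtrl and 4.29, 3.76 and 4.55 in 1xSRSF3. It fell by 1.74 and by 2.58, and the fall was larger in 1xSRSF3 (difference 0.84, interval 0.53 to 1.14, edgeR adjusted p = 0.00243). GGT6, a gamma-glutamyltransferase family member, fell by 1.79 and by 2.49, and UPK2, a urothelial membrane protein, fell by 1.73 and by 2.13; neither difference passed.

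MIR34AHG, the host transcript of the microRNA miR-34a, was close to absent in both overexpressing lines. It had 2135, 1797 and 1651 counts in 3XCTL and 2078, 2567 and 2403 in 1xCtrl, but 0 in each 3XSR library and 5, 0 and 0 in 1xSRSF3. With 3 counts over the group as the floor, which covers counting error only, 3XSR was at least 1627-fold lower than 3XCTL. The gene shares 110 exon bases with MIR34A and 431 on the other strand with LNCTAM34A, so its value is uncertain. PGR, the progesterone receptor, singled out after its values were seen, had 76, 19 and 28 counts in 3XCTL, 0 in each 3XSR library, 264, 262 and 230 in 1xCtrl and 6, 0 and 1 in 1xSRSF3. PGR was called lower in both effects (edgeR adjusted p = 0.00139 and 0.000161), from a level that was already near the floor in 3XCTL.

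**Figure D2:**
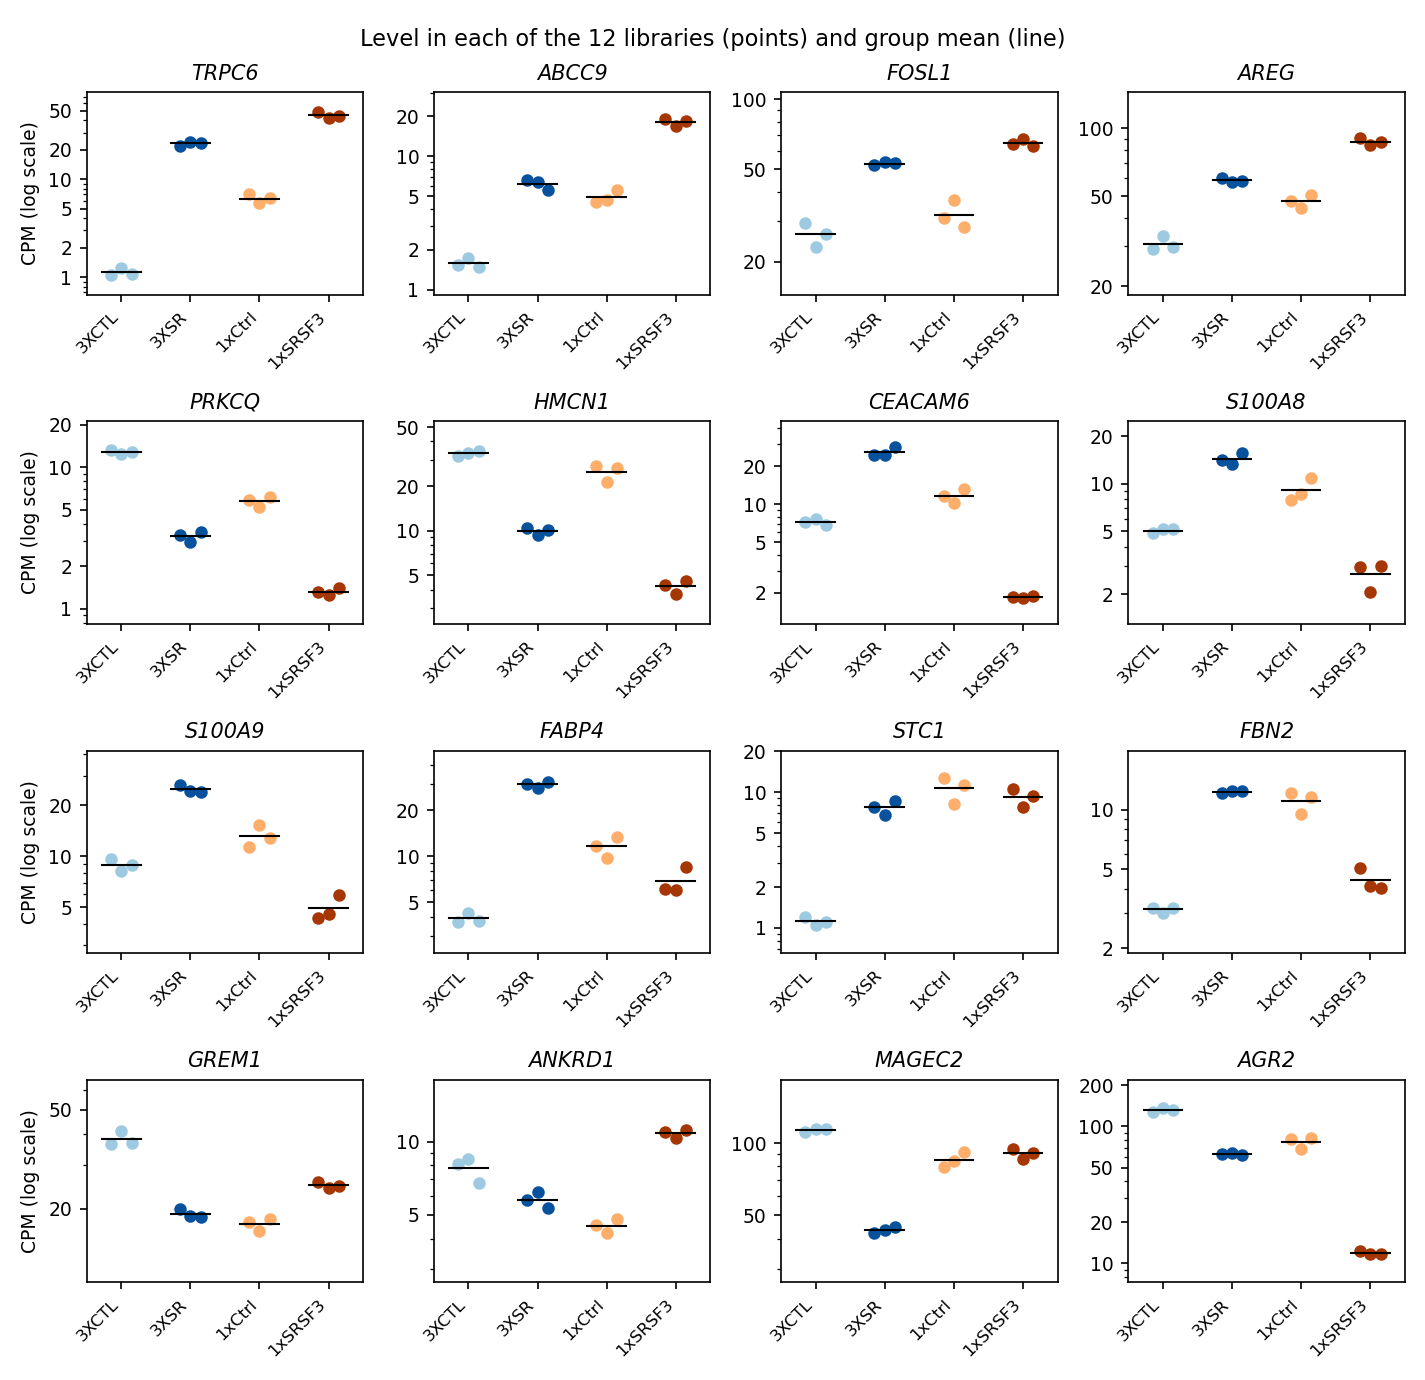
CPM on a log scale of 16 genes in each of the 12 libraries (points, 3 a group) with the group mean (line); light colours are the controls 3XCTL and 1xCtrl, dark colours the lines 3XSR and 1xSRSF3. TRPC6, ABCC9, FOSL1 and AREG are higher than control in both lines and PRKCQ, HMCN1 and AGR2 lower in both, while CEACAM6, S100A8, S100A9, FABP4 and FBN2 are higher in 3XSR and lower in 1xSRSF3.

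Of the 1110 genes higher in both, 14 were in the cytokine and chemokine list, 9 in the AP-1 list and 7 in the EGFR family list. Of 28 cytokine and chemokine genes tested, 16 rose and 2 fell in 3XSR and 18 rose and 3 fell in 1xSRSF3, against 11.6% higher and 8.81% lower, and 12.8% and 14.9%, of all genes. The counts of every list below stand against these same shares, and differences against 8.35% above 0 and 4.12% below 0. Shared rises, here and below, stand against 4.71% of all genes, shared falls against 4.78% and opposite calls against 1.26%. The median log2 fold changes of the cytokine and chemokine genes were 0.92 and 0.53, against -0.01 and -0.06 over all genes tested. The same direction was called in both for 15 of the 28 and opposite directions for 0. IL1A, an epithelial alarmin, measured 14.4, 15.4 and 11.4 CPM in 3XCTL, 41.1, 43.4 and 43.8 in 3XSR, 35.5, 28.6 and 33.6 in 1xCtrl and 63.4, 64.8 and 60.8 in 1xSRSF3. It rose by 1.64 and 0.95, and its difference of 0.69 passed the test (edgeR adjusted p = 0.00942). The neutrophil chemokine CXCL8 (1.5 and 0.66, difference 0.84) and IL1B (1.13 and 0.46, difference 0.66) also rose more in 3XSR. IL24, IL6, IL32, CXCL2, CCL20, CSF2 and TNF rose in both, and of these IL24 differed (3.35 and 4.13, difference -0.78). CCL28 fell in both (-0.35 and -0.42), a call lost without 3XCTL replicate 1 or 2 or any 3XSR replicate. CXCL16 differed downward (0.01 and 0.35), and CCL5 rose in 3XSR with a value of 0.20 in 1xSRSF3 (difference 1.13). The 2 falls in 3XSR numbered 0 without 3XCTL replicate 1 or 3XSR replicate 1 or 3 and 1 without 3XCTL replicate 2 or 3 or 3XSR replicate 2, and the 3 falls in 1xSRSF3 numbered 5 without 1xCtrl replicate 3.

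Of 22 AP-1 and immediate early genes, 14 rose and 1 fell in 3XSR, and 10 rose and 0 fell in 1xSRSF3, with medians of 0.60 and 0.30. The rise was shared for 9. FOSL1, the AP-1 subunit FRA1, measured 29.4, 23.1 and 26.4 CPM in 3XCTL, 52.0, 53.5 and 52.9 in 3XSR, 30.7, 36.8 and 28.2 in 1xCtrl and 63.9, 67.1 and 63.2 in 1xSRSF3. It rose by 1.01 and 1.02, a difference of -0.02 (interval -0.32 to 0.29). The stress-induced factor ATF3 rose by 1.38 and 1.16 and the MAP kinase phosphatase DUSP1 by 1.20 and 1.23. FOSB (0.87 and 0.85), JUN (0.61 and 0.88) and IER3 (0.59 and 0.56) rose in both. The effects differed above 0 for 4 members: DUSP6 (1.31 and 0.01, difference 1.30), SPRY4 (1.41 and -0.19, difference 1.6), DUSP4 (1.26 and 0.72, difference 0.53) and DUSP5 (1.02 and 0.28, difference 0.73), which restrain MAP kinase signalling. KLF6 was the 1 member that differed below 0 (0.04 and 0.47), a count that was 3 without 1xCtrl replicate 2 and 2 without 3XCTL replicate 2. The 1 fall in 3XSR numbered 2 without 1xCtrl replicate 2 or 3XCTL replicate 2 and 0 without any other library except 1xSRSF3 replicate 1.

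Of 16 EGFR family receptor and ligand genes, 9 rose and 2 fell in 3XSR and 7 rose and 4 fell in 1xSRSF3, with 7 shared rises. The ligand AREG measured 29.3, 33.3 and 29.7 CPM in 3XCTL, 60.1, 58.1 and 58.5 in 3XSR, 47.5, 44.3 and 50.5 in 1xCtrl and 90.7, 84.0 and 87.5 in 1xSRSF3. AREG rose by 0.94 and 0.88 (difference 0.06, interval -0.15 to 0.26), EREG by 1.07 and 0.97 and TGFA by 0.57 and 0.74. HBEGF rose more in 3XSR (1.4 and 0.50, difference 0.90), and BTC rose there with a value of -0.22 in 1xSRSF3. The receptor EGFR was not called in either effect (-0.03 and 0.04). The 2 falls in 3XSR numbered 0 without 3XCTL replicate 1 or 3 or 3XSR replicate 2 or 3, and 1 without any other library except 1xCtrl replicate 2 or 3. The 4 differences above 0 numbered 2 without 1xCtrl replicate 1, 1xSRSF3 replicate 3, 3XCTL replicate 3 or 3XSR replicate 1. CDKN1A, the CDK inhibitor p21, rose in both (1.07 and 1.04, difference 0.03, interval -0.25 to 0.31).

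PTGS2, the inducible cyclooxygenase, was chosen after its values were seen as an example of an equal response. It measured 36.6, 38.0 and 35.2 CPM in 3XCTL, 117, 110 and 113 in 3XSR, 84.3, 65.9 and 82.4 in 1xCtrl and 265, 222 and 227 in 1xSRSF3. It rose by 1.63 and 1.62 on the log2 scale, a difference of 0.01 (interval -0.28 to 0.30, edgeR adjusted p = 0.98). Each group of PTGS2 lay apart from its control, and 1xCtrl lay above 3XCTL.

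Integrin, laminin and protease genes rose in part. Of 28 integrin and laminin genes, 10 rose and 1 fell in 3XSR and 10 rose and 6 fell in 1xSRSF3, with 7 shared rises; the 1 fall in 3XSR numbered 2 without 1xCtrl replicate 2. ITGA6, the integrin alpha 6 subunit, rose by 1.14 and 0.71. ITGA2, a collagen-binding integrin subunit, rose by 0.82 and 0.59. Of 31 matrix protease and plasminogen activation genes, 14 rose and 3 fell in 3XSR and 11 rose and 6 fell in 1xSRSF3. The interstitial collagenase MMP1 measured 327, 385 and 389 CPM in 3XCTL, 1757, 1611 and 1732 in 3XSR, 1183, 996 and 1267 in 1xCtrl and 2696, 2432 and 2470 in 1xSRSF3. It rose by 2.21 and 1.14, a difference of 1.07 (interval 0.78 to 1.36, edgeR adjusted p = 0.000362). SERPINB2, an inhibitor of plasminogen activators, rose more in 1xSRSF3 (1.31 and 1.83, difference -0.52, edgeR adjusted p = 0.00801), while PLAU, urokinase, rose more in 3XSR (0.85 and 0.28, difference 0.57). SERPINB2 shares 547 exon bases with SERPINB10. MMP28 rose in 3XSR (0.71) and fell in 1xSRSF3 (-0.63). The metalloprotease ADAM19 rose in both (1.09 and 0.87).

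Opposite responses were called for 8 of 41 keratin, desmosome and squamous genes and for 2 of 26 claudin and luminal secretory genes. Of all genes tested, 1.26% were called in opposite directions. CEACAM6, a cell-surface adhesion molecule of mucosal epithelia, measured 7.27, 7.72 and 6.85 CPM in 3XCTL and 24.7, 24.3 and 28.4 in 3XSR. In the other table it measured 11.7, 10.2 and 13.2 CPM in 1xCtrl and 1.87, 1.82 and 1.89 in 1xSRSF3. The 3XSR libraries were the highest of all 12 and the 1xSRSF3 libraries the lowest, with the controls between them. CEACAM6 rose by 1.82 (SE 0.10) in 3XSR and fell by 2.65 (SE 0.11) in 1xSRSF3 on the log2 scale. The effects differed by 4.47 (interval 4.15 to 4.79, edgeR adjusted p = 1.69e-08), the highest difference among the genes eligible for naming. Its paralogue CEACAM5 had the same pattern at a lower level (2.12 and -3.04, difference 5.17). Reads of the 2 paralogues could be shared, and CEACAM6 shares 172 exon bases with an unnamed gene on the same strand.

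The calgranulin gene S100A8 (chromosome 1, 153390032 to 153391188) measured 4.85, 5.15 and 5.15 CPM in 3XCTL, 14.1, 13.4 and 15.5 in 3XSR, 7.87, 8.56 and 10.9 in 1xCtrl and 2.97, 2.08 and 3.03 in 1xSRSF3. It rose by 1.5 and fell by 1.76, a difference of 3.26 (interval 2.79 to 3.73, edgeR adjusted p = 3.45e-06). Its partner in the calprotectin complex, S100A9, rose by 1.48 and fell by 1.41 (difference 2.90, edgeR adjusted p = 3.34e-06). The same sign pattern was called for S100A7 (1.88 and -2.16), but at 0.462 CPM or less in every library, below the 5 CPM set for naming. It had 21, 16 and 26 counts in 3XCTL and 63, 91 and 53 in 3XSR. Its fall rests on few counts, 12, 58 and 42 in 1xCtrl and 9, 6 and 10 in 1xSRSF3. The pattern was also called for 3 cornified envelope precursors, SPRR1A (1.86 and -1.46), SPRR1B (1.54 and -1.03) and SPRR3 (1.78 and -2.05). These precursors lie with the S100 genes in the epidermal differentiation complex. KRT1 (1.58 and -0.60) and KRT23 (0.74 and -0.81) completed the 8 opposite calls among 41 keratin, desmosome and squamous genes.

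Over that list, 15 genes rose and 7 fell in 3XSR, 4 rose and 15 fell in 1xSRSF3, and the effects differed above 0 for 16 and below 0 for 1, against 8.35% and 4.12% of all genes. Its median difference was 0.17. Other members were called the same way in both: KRT6A (0.58 and 0.62), the basal keratin KRT14 (0.97 and 0.91) and the stress keratin KRT16 (0.87 and 0.86) rose, and KRT80 fell (-1.02 and -1.16). The interval of the difference was -0.35 to 0.26 for KRT6A but -0.60 to 0.63 for KRT16, too wide to show a like response. KRT4, a keratin of stratified mucosa, measured 397, 346 and 377 CPM in 3XCTL, 247, 251 and 251 in 3XSR, 175, 197 and 173 in 1xCtrl and 33.4, 30.3 and 37.2 in 1xSRSF3. It fell in both, by 0.58 and by 2.43, and more in 1xSRSF3 (difference 1.85, interval 1.6 to 2.1, edgeR adjusted p = 2.65e-06). KRT13, its pairing partner, fell likewise (-0.59 and -1.98). KRT17 was the 1 member below 0 (0.23 and 1.56, difference -1.33, edgeR adjusted p = 0.0486). It measured 54.8, 98.3 and 45.2 CPM in 1xCtrl, with replicate 2 highest. The count below 0 was 8 without 1xCtrl replicate 2, 2 without 3XCTL replicate 2 and 0 without any other single library. The 3XSR falls numbered 11 without 1xCtrl replicate 2, 3 without 3XCTL replicate 1 or 3XSR replicate 1, and 4 without 3XCTL replicate 3 or 3XSR replicate 3. The 8 opposite calls numbered between 7 and 9 when single libraries were left out.

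Of 26 claudin and luminal secretory genes tested (of 29 listed), 8 rose and 7 fell in 3XSR, whereas 1 rose and 15 fell in 1xSRSF3. Their medians were -0.14 and -0.87, and the effects differed above 0 for 13 and below 0 for 0. AGR2, a protein disulfide isomerase of mucus-secreting cells, measured 128, 137 and 132 CPM in 3XCTL, 63.1, 63.5 and 62.1 in 3XSR, 80.7, 67.8 and 82.9 in 1xCtrl and 12.3, 11.7 and 11.6 in 1xSRSF3. It fell by 1.07 and by 2.70 (difference 1.63, interval 1.41 to 1.85, edgeR adjusted p = 2.65e-06). The tight junction gene CLDN8 fell by 1.37 and by 2.69 (difference 1.32). ELF3, an epithelial ETS factor, fell by 0.43 and by 1.48, and ELF5, a luminal progenitor factor, had values of -0.25 and -2.72. PIGR, the transporter of polymeric immunoglobulin, and the mucin gene MUC16 fell in 1xSRSF3 (-2.46 and -2.33) and were not called in 3XSR. Leaving out single libraries gave between 10 and 15 differences above 0. The 1 rise in 1xSRSF3 was lost without 1xCtrl replicate 2 or 3 or any 1xSRSF3 replicate.

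Promoter sequences are shown for CEACAM6 and SPRR1B, which rose in 3XSR and fell in 1xSRSF3, for ANKRD1, which did the reverse, and for PTGS2, which rose in both, so that genes of each pattern can be set side by side. They were chosen after the values were seen. Each is the 250 bases before the start of the RefSeq transcript, read 5′ to 3′ on the gene's strand from RefSeq's GRCh38.p14 table. Capitals mark CACGTG, the E-box bound by MYC and MAX, or TGANTCA, searched on both strands. With N as any base, TGANTCA is a loose pattern that includes the AP-1 element and also other sequences. They are chr19:41755280-41755529 (+), chr1:153030953-153031202 (+), chr10:90921088-90921337 (-) and chr1:186680424-186680673 (-).
CEACAM6: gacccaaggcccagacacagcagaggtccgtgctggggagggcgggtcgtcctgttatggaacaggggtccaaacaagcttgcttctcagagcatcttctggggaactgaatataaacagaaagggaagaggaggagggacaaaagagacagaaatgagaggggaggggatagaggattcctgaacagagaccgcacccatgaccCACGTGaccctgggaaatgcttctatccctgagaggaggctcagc
SPRR1B: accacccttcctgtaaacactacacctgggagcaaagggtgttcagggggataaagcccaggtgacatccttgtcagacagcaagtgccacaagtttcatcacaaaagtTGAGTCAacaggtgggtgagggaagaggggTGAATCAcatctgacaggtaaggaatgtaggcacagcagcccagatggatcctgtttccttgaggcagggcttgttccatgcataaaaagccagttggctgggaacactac
ANKRD1: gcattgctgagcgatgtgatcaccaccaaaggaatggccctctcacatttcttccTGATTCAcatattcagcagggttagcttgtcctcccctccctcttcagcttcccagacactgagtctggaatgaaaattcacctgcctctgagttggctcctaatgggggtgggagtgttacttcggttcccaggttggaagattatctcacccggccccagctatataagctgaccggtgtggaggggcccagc
PTGS2: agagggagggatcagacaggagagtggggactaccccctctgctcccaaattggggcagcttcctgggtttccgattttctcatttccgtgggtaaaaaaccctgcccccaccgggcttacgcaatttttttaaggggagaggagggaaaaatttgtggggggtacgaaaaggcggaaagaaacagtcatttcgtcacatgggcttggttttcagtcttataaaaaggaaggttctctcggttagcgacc

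The CEACAM6 window held 1 CACGTG, 45 bases before the start. SPRR1B held 2 matches to TGANTCA, 141 and 111 bases before the start, and ANKRD1 held 1, at 195 bases. PTGS2 held neither motif in these letters. Over the 19480 promoters of the 13737 tested genes found in the table, 7.82% held CACGTG and 5.13% TGANTCA. Promoters of genes higher in both held them at 6.83% and 6.75%, those of genes lower in both at 6.38% and 6.8%. Of the promoters of genes that rose in 3XSR and fell in 1xSRSF3, 7.59% held CACGTG and 6.70% TGANTCA, and of the 77 promoters with the reverse pattern 9.09% held each. A match is a description of letters and not a site.

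FABP4, FBN2 and STC1 were further genes with high differences. FABP4, a fatty acid-binding protein, measured 3.70, 4.25 and 3.75 CPM in 3XCTL, 30.0, 28.3 and 31.0 in 3XSR, 11.7, 9.79 and 13.4 in 1xCtrl and 6.12, 6.02 and 8.55 in 1xSRSF3. It rose by 2.93 and fell by 0.75 (difference 3.69, edgeR adjusted p = 1.36e-06). FBN2, a microfibril glycoprotein, measured 3.21, 3.03 and 3.19 CPM in 3XCTL, 12.2, 12.4 and 12.4 in 3XSR, 12.2, 9.47 and 11.6 in 1xCtrl and 5.08, 4.14 and 4.05 in 1xSRSF3. The rise of FBN2 in 3XSR brought it to the level of 1xCtrl, from which 1xSRSF3 fell (1.97 and -1.32, difference 3.30). STC1, the secreted hormone stanniocalcin 1, measured 1.21, 1.05 and 1.11 CPM in 3XCTL, 7.84, 6.78 and 8.65 in 3XSR, 12.7, 8.26 and 11.3 in 1xCtrl and 10.6, 7.81 and 9.42 in 1xSRSF3. The STC1 difference of 3.00 (interval 2.50 to 3.51) came with overlapping levels in 1xCtrl and 1xSRSF3 and with a control, 3XCTL, that was lower than the 9 other libraries.

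Among the genes eligible for naming, the lowest differences lay nearer to 0 than the highest. ANKRD1, a target of YAP and TEAD, measured 8.09, 8.50 and 6.77 CPM in 3XCTL, 5.77, 6.23 and 5.34 in 3XSR, 4.53, 4.24 and 4.79 in 1xCtrl and 10.9, 10.4 and 11.2 in 1xSRSF3. It fell by 0.43 and rose by 1.26 (difference -1.69, interval -2.00 to -1.38, edgeR adjusted p = 2.67e-05), and its fall did not pass without 3XSR replicate 3. GREM1, a secreted BMP antagonist, measured 36.4, 41.2 and 36.6 CPM in 3XCTL, 20.0, 18.6 and 18.5 in 3XSR, 17.7, 16.3 and 18.1 in 1xCtrl and 25.7, 24.2 and 24.6 in 1xSRSF3. GREM1 fell by 1.00 and rose by 0.52 (difference -1.51). WWC1, the Hippo pathway protein KIBRA, fell by 0.34 and rose by 0.41, and its fall did not pass without 3XCTL replicate 1. PMEPA1, a TGF-beta-induced feedback inhibitor, rose in 1xSRSF3 (1.46) with a value of -0.20 in 3XSR. The cancer-testis gene MAGEC2 (-1.39), the receptor tyrosine kinase KIT (-1.28) and the sulfate-activating enzyme PAPSS2 (-1.6) fell in 3XSR, with values of 0.09, 0.12 and -0.25 in 1xSRSF3.

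Genes of ribosome production and splicing rose in 1xSRSF3 and seldom in 3XSR. Of 33 nucleolar ribosome biogenesis genes, 26 rose and 0 fell in 1xSRSF3, with a median of 0.39, whereas 2 rose and 0 fell in 3XSR, with a median of 0.00. The effects differed below 0 for 15 and above 0 for 0 (median -0.41). WDR43, a subunit of the small-subunit processome, measured 236, 249 and 216 CPM in 3XCTL, 233, 210 and 213 in 3XSR, 203, 177 and 204 in 1xCtrl and 305, 282 and 287 in 1xSRSF3. The 3XSR libraries overlapped their control, while the 1xSRSF3 libraries lay above theirs (-0.10 and 0.58, difference -0.68, interval -0.91 to -0.45, edgeR adjusted p = 0.0015). NOP14, another processome subunit, had effects of 0.01 and 0.53 (difference -0.52) and NOLC1, a nucleolar chaperone of ribonucleoproteins, of -0.09 and 0.42 (difference -0.52). The abundant nucleolar protein genes NCL (0.04 and 0.51) and NOP58 (-0.02 and 0.40) differed too. NPM1 rose in 1xSRSF3 (0.47), and its difference of -0.42 did not pass. The count of 15 was 7 without 1xCtrl replicate 1, 8 without 3XSR replicate 2 or 3, 9 without 1xSRSF3 replicate 1 or 3 and 23 without 1xCtrl replicate 2. With the GC trend removed it was 27, with total counts alone 11, with upper-quartile scaling 10 and with the replicate block 8. The 2 rises in 3XSR numbered 4 without 1xCtrl replicate 2 and 1 without 3XCTL replicate 3 or 3XSR replicate 2 or 3.

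Of 50 cytosolic ribosomal protein genes, 28 rose and 0 fell in 1xSRSF3 (median 0.26), and 1 rose and 0 fell in 3XSR (median 0.02). RPL24 was the member that rose in both (0.47 and 0.62), and the 3XSR rises numbered 2 without 1xCtrl replicate 2 or 3XCTL replicate 2. RPLP0, the stalk protein, measured 1201, 1149 and 1162 CPM in 3XCTL, 1030, 1070 and 1015 in 3XSR, 907, 979 and 860 in 1xCtrl and 1069, 1019 and 1094 in 1xSRSF3. Its effects were -0.17 and 0.21, a difference of -0.39 (interval -0.57 to -0.20, edgeR adjusted p = 0.0112), one of 7 in the list below 0 and 0 above it. RPS12 (difference -0.38) and RPS16 (-0.35) were among them; RPS12 lost its call without 1xSRSF3 replicate 3 and RPS16 with total counts alone or without 1xCtrl replicate 1. Ribosomal protein genes have many processed pseudogenes, so how reads were divided is uncertain. The count of 28 was 15 without 1xCtrl replicate 1, 16 without 1xSRSF3 replicate 3 and with total counts alone it was 15. The count of 7 was 20 without 1xCtrl replicate 2, 2 without 1xCtrl replicate 1 or 1xSRSF3 replicate 3, 3 without 3XCTL replicate 1 or 3XSR replicate 2 or 3, and 4 without 3XCTL replicate 2 or 1xSRSF3 replicate 1. With the GC trend removed it was 26, with upper-quartile scaling 4, with total counts alone 3 and with the replicate block 2.

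Of 33 core spliceosome genes, 17 rose and 0 fell in 1xSRSF3 (median 0.22), and 1 rose and 1 fell in 3XSR (median -0.01). SNRPF, an Sm ring protein, measured 55.3, 57.0 and 54.1 CPM in 3XCTL, 57.3, 52.3 and 57.3 in 3XSR, 43.3, 47.1 and 49.0 in 1xCtrl and 60.8, 61.9 and 62.4 in 1xSRSF3. Its effects were 0.00 and 0.41, a difference of -0.40 (interval -0.59 to -0.22, edgeR adjusted p = 0.00921). SNRPC, a U1 protein (-0.06 and 0.31), SF3B4, a U2 protein (-0.01 and 0.47), and SNRPG (-0.13 and 0.28) were others of the 8 differences below 0; there were 0 above it. PRPF19, the ubiquitin ligase of the spliceosome, was called in neither effect (-0.20 and 0.19). Its difference of -0.39 lost the call in 11 alternatives, with the minimum log2 change of 1 not counted. SNRPC lost its call without 1xCtrl replicate 1, 1xSRSF3 replicate 3 or 3XSR replicate 2. The 1 rise in 3XSR numbered 2 without 1xCtrl replicate 2 or 3XCTL replicate 2 and 0 without 3XCTL replicate 1 or 3 or any 3XSR replicate. The 1 fall numbered 3 without 1xCtrl replicate 2 and 0 without any other library. The count of 17 was 11 without 1xSRSF3 replicate 1, 11 with total counts alone and 25 with the GC trend removed. The count of 8 was 16 without 1xCtrl replicate 2, 1 without 1xCtrl replicate 1, 1xSRSF3 replicate 3 or 3XSR replicate 2, 2 without 1xSRSF3 replicate 1 or 3XSR replicate 3, 3 without 3XCTL replicate 1 and 5 without 3XCTL replicate 2. With the GC trend removed it was 20, with upper-quartile scaling 4, with total counts alone 2 and with the replicate block 2. Of 25 hnRNP genes, 7 rose in 1xSRSF3. HNRNPF was called in opposite directions (-0.29 and 0.36, difference -0.65), which was lost without 3XCTL replicate 1 or 3XSR replicate 2 or 3. The count of 7 was 3 without 1xCtrl replicate 1 or 1xSRSF3 replicate 3 and 4 without 1xSRSF3 replicate 1.

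**Figure D3:**
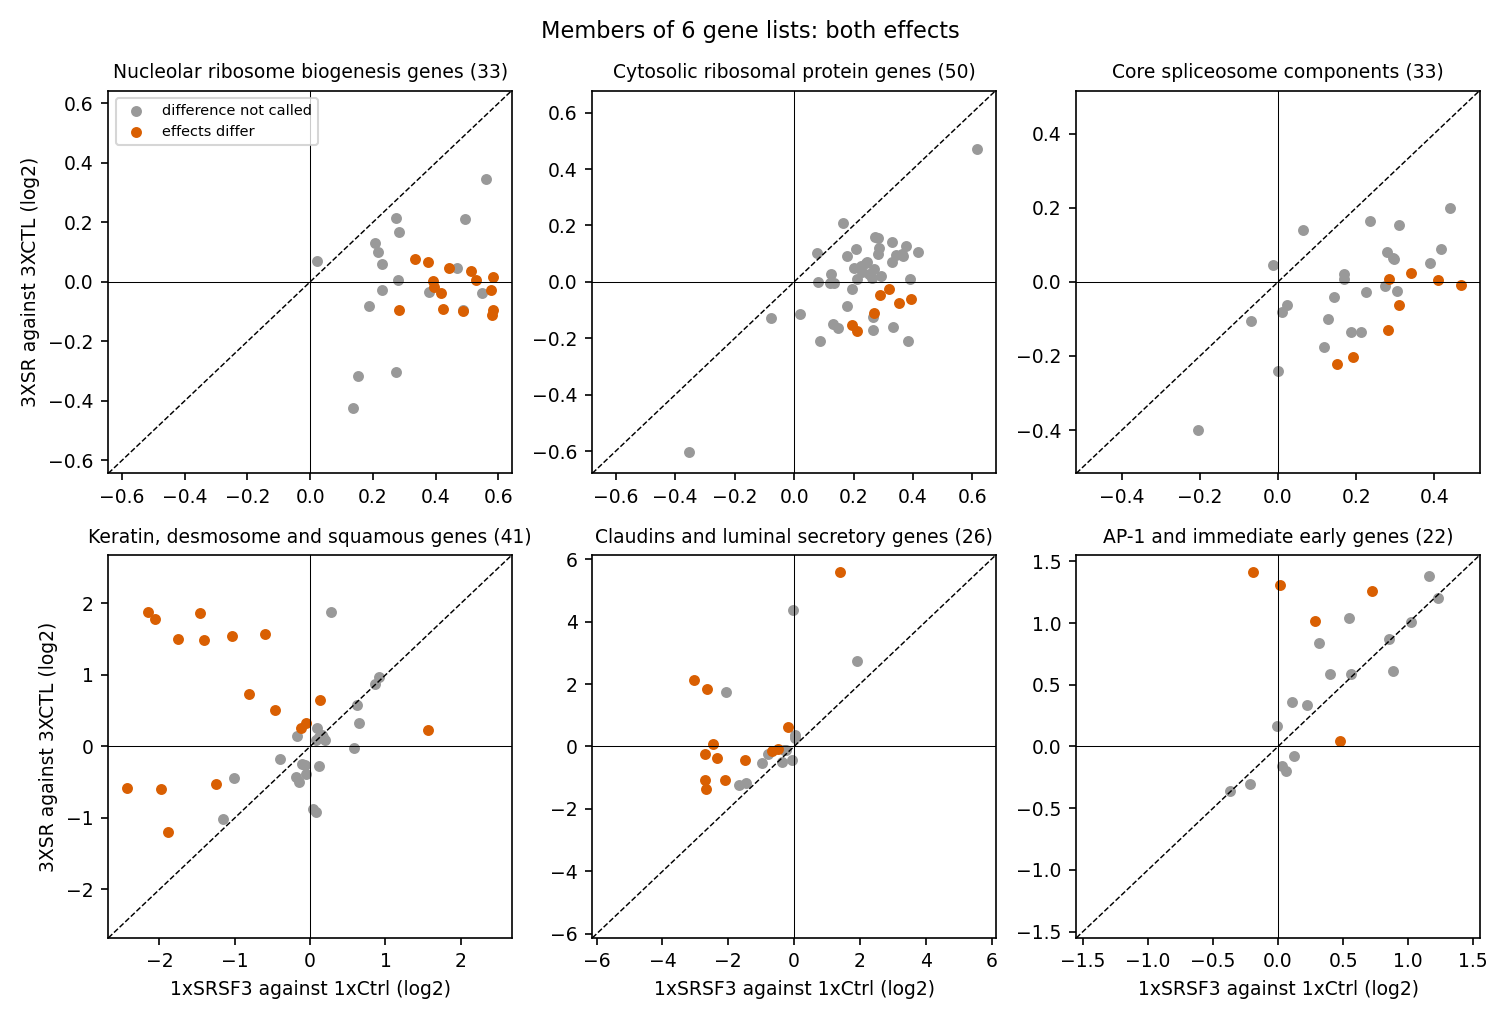
Both effects (log2 fold change; 1xSRSF3 horizontal, 3XSR vertical) for the tested members of 6 gene lists, with genes whose effects differ in orange and the line of equality dashed; axes are scaled to each list. The ribosome and spliceosome lists lie right of 0 and near 0 vertically, keratin and luminal genes reach far left of 0, and most AP-1 genes lie near the dashed line.

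**Figure D4:**
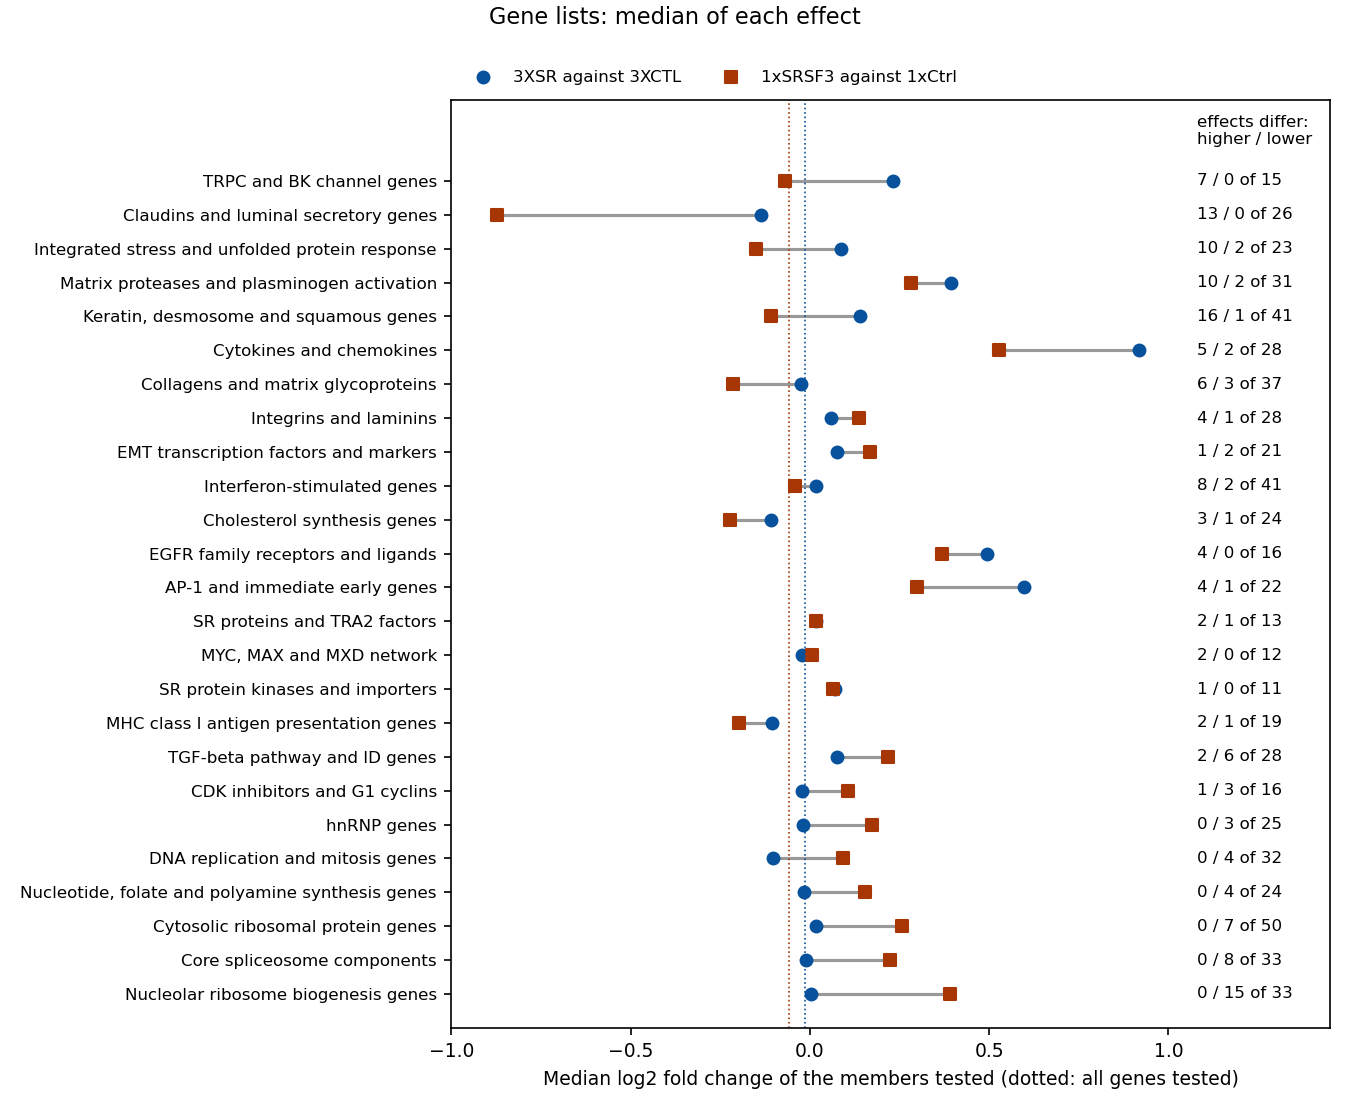
Median log2 fold change of the tested members of 25 gene lists in 3XSR (circles) and in 1xSRSF3 (squares), ordered by the median difference, with the numbers of members whose effects differ above and below 0 at the right. Cytokine, AP-1 and EGFR family medians lie right of 0 in both, and the lists at the bottom, of ribosome and spliceosome genes, lie right of 0 in 1xSRSF3 and within 0.02 of it in 3XSR.

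Some members of the stress, interferon and TGF-beta lists were also called with differing effects. Of 23 integrated stress and unfolded protein response genes, 6 rose and 2 fell in 3XSR and 5 rose and 10 fell in 1xSRSF3, and the effects differed above 0 for 10 and below 0 for 2. ASNS, asparagine synthetase, measured 37.3, 42.7 and 34.8 CPM in 3XCTL, 40.5, 40.1 and 39.4 in 3XSR, 54.0, 50.6 and 54.9 in 1xCtrl and 27.2, 23.6 and 23.2 in 1xSRSF3. ASNS fell by 1.11 in 1xSRSF3 with a value of 0.06 in 3XSR (difference 1.17, interval 0.92 to 1.43, edgeR adjusted p = 7.56e-05). ASNS shares 1985 exon bases with an unnamed gene on the same strand. HERPUD1, a factor of ER-associated degradation, fell by 0.62 with 0.09 in 3XSR, and the chaperone HSPA5 rose in 3XSR (0.25) and fell in 1xSRSF3 (-0.21), an opposite call that was lost in each fit without a library other than 1xCtrl replicate 2, 1xSRSF3 replicate 1 or 3XCTL replicate 2. PPP1R15A, the phosphatase subunit GADD34, went the other way: it rose in both and more in 1xSRSF3 (0.56 and 1.18, difference -0.63). The 2 differences below 0 numbered 1 without 1xCtrl replicate 1 or 3, 1xSRSF3 replicate 1 or 3, 3XCTL replicate 1 or any 3XSR replicate. The 10 differences above 0 numbered 6 without 1xSRSF3 replicate 3 or without 3XSR replicate 2. The 3XSR rises numbered 3 without 3XCTL replicate 1 or 3, or 3XSR replicate 1 or 2, and the 1xSRSF3 rises 3 without 1xCtrl replicate 2 or 1xSRSF3 replicate 1 or 3.

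Of 41 interferon-stimulated genes, 15 rose and 5 fell in 3XSR, 5 rose and 11 fell in 1xSRSF3, and 3 were called in opposite directions. The effects differed above 0 for 8 and below 0 for 2, against 8.35% and 4.12% of all genes. Leaving out single libraries gave between 6 and 10 differences above 0 and between 0 and 3 below 0. OAS1, a sensor of double-stranded RNA, measured 33.9, 31.2 and 31.1 CPM in 3XCTL, 49.3, 43.4 and 46.6 in 3XSR, 41.0, 38.0 and 42.4 in 1xCtrl and 29.5, 26.6 and 28.7 in 1xSRSF3. It rose by 0.53 and fell by 0.52 (difference 1.05, interval 0.83 to 1.27, edgeR adjusted p = 5.55e-05). STAT2 (0.27 and -0.29) and IFI44L (0.59 and -0.83) were the other opposite calls. OAS2 rose in 3XSR (0.28, difference 0.46), and BST2 and IFITM2 fell in both, BST2 by 0.84 and by 0.68. The median of the list was near that of all genes in both effects (0.02 and -0.04). The 15 rises numbered 9 without 3XCTL replicate 3 and 8 without 3XSR replicate 1. The 5 falls numbered 8 without 1xCtrl replicate 2, 3 without 3XCTL replicate 1 or 2 or 3XSR replicate 1, and 2 without 3XSR replicate 3, and the 5 rises in 1xSRSF3 numbered 3 without 1xSRSF3 replicate 1.

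Of 28 TGF-beta pathway and ID genes, 5 rose and 3 fell in 3XSR and 12 rose and 3 fell in 1xSRSF3. There were 2 differences above 0 and 6 below, against 8.35% and 4.12% of all genes, so the count above 0 was near the share of all genes. ID4, an inhibitor of basic helix-loop-helix factors, measured 9.03, 8.32 and 8.50 CPM in 3XCTL, 9.67, 9.64 and 9.54 in 3XSR, 6.18, 5.76 and 6.48 in 1xCtrl and 13.2, 11.3 and 13 in 1xSRSF3. ID4 rose by 1.02 in 1xSRSF3 with a value of 0.16 in 3XSR (difference -0.87, edgeR adjusted p = 0.000667), and ID2 also rose there (-0.03 and 0.87). BMP4 fell in 3XSR (-1.10, with -0.12 in 1xSRSF3). The inhibitory SMAD gene SMAD6 fell in both, by 0.97 and by 0.33 (difference -0.65). LTBP1, a latent TGF-beta binding protein, rose in both and more in 3XSR (1.73 and 1.03). The 3XSR rises numbered 8 without 1xCtrl replicate 2 and 3 without 3XCTL replicate 1, and the 2 differences above 0 numbered 4 without 1xCtrl replicate 2 and 1 without 3XSR replicate 2.

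Of 15 TRPC and BK channel genes tested (of 20 listed), 6 rose and 1 fell in 3XSR and 2 rose and 3 fell in 1xSRSF3, and the effects differed above 0 for 7 and below 0 for 0. KCNMA1, the pore of the calcium-activated BK potassium channel, measured 1.27, 1.03 and 1.29 CPM in 3XCTL, 12.8, 12.4 and 12.6 in 3XSR, 7.17, 7.73 and 6.85 in 1xCtrl and 18.2, 16.8 and 16.1 in 1xSRSF3. Like TRPC6 it rose in both and from a lower control in the first table (3.39 and 1.23, difference 2.16, interval 1.87 to 2.45, edgeR adjusted p = 2.65e-06). ORAI3, a store-operated calcium channel, fell in 1xSRSF3 by 1.25 with -0.21 in 3XSR, and it shares 1397 exon bases with an unnamed gene on the same strand. The 3 falls numbered 1 without 1xCtrl replicate 1 or without 1xSRSF3 replicate 2, the 0 differences below 0 numbered 2 without 1xCtrl replicate 2, and the 1 fall in 3XSR numbered 2 without 1xCtrl replicate 2 or 3 or 3XCTL replicate 2. Of 21 epithelial-mesenchymal transition genes, 7 rose and 4 fell in 3XSR and 5 rose and 5 fell in 1xSRSF3. Their effects differed above 0 for 1 and below 0 for 2, against 8.35% and 4.12% of all genes, with 4 shared rises and 3 shared falls. Leaving out single libraries gave between 2 and 5 shared rises and between 1 and 3 shared falls. The list had no single direction, and CDH1 and VIM, named below, do not stand for it. The 7 rises numbered 4 without 3XCTL replicate 3, 3XSR replicate 1 or 3, or 1xSRSF3 replicate 2 or 3, and the 5 rises in 1xSRSF3 numbered 3 without 1xCtrl replicate 1. The 4 falls in 3XSR numbered 2 without 3XCTL replicate 1 or 3, any 3XSR replicate or 1xSRSF3 replicate 3. CDH1, E-cadherin, fell in both (-0.23 and -0.36). VIM, vimentin, rose in 3XSR with a value of 0.29 in 1xSRSF3 (2.05 and 0.29, difference 1.76). VIM means were 0.210 CPM in 3XCTL, 0.871 in 3XSR, 2.76 in 1xCtrl and 3.37 in 1xSRSF3, so the rise in 3XSR stayed below 1xCtrl.

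A difference of effects can lie between the controls or between the overexpressing lines, and it lay more often between the controls. Among the 2940 genes that differed, the gap between 3XCTL and 1xCtrl was larger than that between 3XSR and 1xSRSF3 for 1835 (62.4%), against 55.9% over all genes tested. For 1466 of them the controls differed by the test and the overexpressing lines did not, for 746 the reverse held, for 499 both differed and for 229 neither did. Over all genes, 5079 (21.5%) differed between the controls and 3278 (13.9%) between the overexpressing lines. Between the controls, 9.02% of all genes were higher in 3XCTL and 12.5% lower, and between the overexpressing lines 7.91% were higher in 3XSR and 5.99% lower. MYC, STC1, TRPC6, KCNMA1 and PAPSS2 had the larger gap between the controls: STC1 was 3.26 lower on the log2 scale in 3XCTL than in 1xCtrl (edgeR adjusted p = 3.07e-07) and 0.26 lower in 3XSR than in 1xSRSF3 (edgeR adjusted p = 0.343). CEACAM6, KRT4, AGR2, HERPUD1 and MAGEC2 had the larger gap between the overexpressing lines: CEACAM6 differed by 3.79 between the overexpressing lines and by -0.68 between the controls, and HERPUD1 by 0.68 and -0.02. Both gaps cross the tables, so a difference between lines and one between tables cannot be told apart in either.

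**Figure D5:**
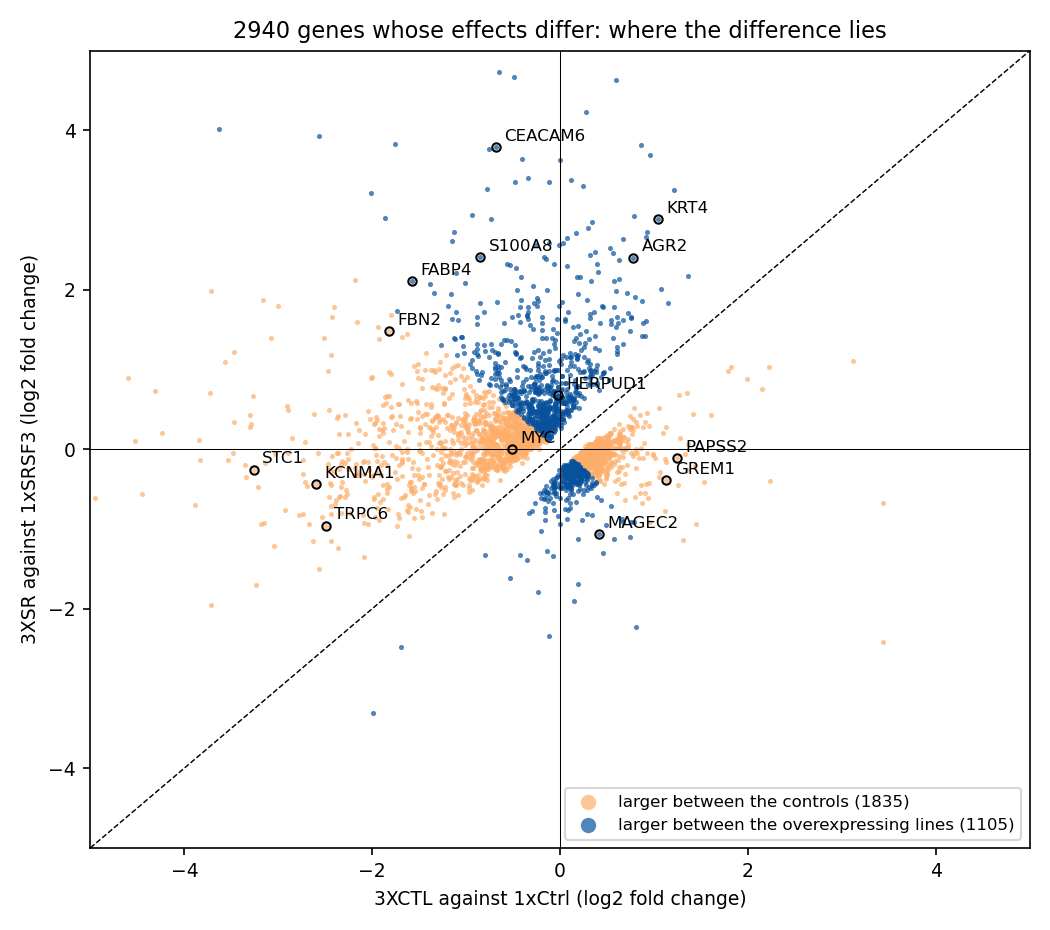
For the 2940 genes whose effects differ, the log2 fold change of 3XCTL against 1xCtrl (horizontal) and of 3XSR against 1xSRSF3 (vertical); 39 genes lie outside the axes, and the dashed line is equality. Orange marks the 1835 genes with the larger gap between the controls, among them STC1, TRPC6 and KCNMA1, and blue the 1105 with the larger gap between the overexpressing lines, among them CEACAM6, KRT4 and AGR2.

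Shared and differing genes also differed in features that the comparison did not use. The median GC content of the longest annotated transcript was 44.3% for genes higher in both, 52.2% for genes lower in both and 48.4% for all genes tested, with GC known for 97.8% of the genes or more in each class. Genes with a difference above 0 had a median of 46.9% and those below 0 one of 49.0%. Genes with a difference below 0 were the more abundant, with a median of 42.3 CPM against 6.16 CPM above 0 and 4.21 CPM over all genes, and 93.4% of them were protein-coding, against 65.8% of all genes. These are descriptions; calls come more easily at higher levels, and the median half-width of the interval of the difference was 0.51 on the log2 scale over all genes and 0.26 at 5 CPM or more.

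The other lines of the series share control libraries with these effects, so their values are set beside them and no overlap is counted. On a fit of all 21 libraries, CEACAM6 changed by -0.19 in 1xSRSF2, -0.50 in 1xSRSF7 and 1.94 in MYC-OE on the log2 scale. S100A8 had values of 0.71, -0.39 and 1.35, STC1 of -0.73, -0.18 and 3.24 and FBN2 of 0.70, 1.07 and 4.14. For TRPC6 the values were 0.21, -0.44 and 2.89, and for ABCC9 0.38, -0.35 and 2.04. Both genes were named for a high rise in 3XSR and in 1xSRSF3, so nothing is read from how 1xSRSF3 ranks among the lines. PRKCQ had values of -4.04, -3.69 and -4.26 and HMCN1 of -2.24, -1.64 and -2.71, the same sign in every line. ANKRD1 had values of 1.84, 0.63 and -0.55 and GREM1 of 0.86, 0.32 and -1.21. Both genes were above 0 in the lines set against 1xCtrl and below 0 in those set against 3XCTL. For both, 3XCTL lay above 1xCtrl, by 0.78 and by 1.13 on the log2 scale in the fit of 12 libraries. Lines with the same control share its level, so nothing is read from this split of signs. WDR43 had values of 0.24, 0.02 and -0.09.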

How the data were processed

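Gene counts of 12 of the 21 libraries were analysed. The deposited values are whole-number counts per gene in 2 tables. The submitters' processing notes name Trimmomatic 0.39, STAR, StringTie 2.1.3b and GRCh38.p13 with no role or order. StringTie estimates coverage, so the deposited counts may be estimates. The annotation release, the counting step and its strand setting are not given in the sources used here; the labels' protocols describe stranded polyA libraries and paired-end reads. Each table lists 60668 Ensembl identifiers, of which 42005 matched a symbol, 58561 were found in GENCODE 29 (GRCh38), used for positions and exon overlaps, and 58502 had a GC content. Groups and replicate numbers come from the titles.

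Both tables entered 1 fit in R 4.3.3 with edgeR 4.0.16: filterByExpr (minimum count 10, minimum total count 15), TMM scaling, a robust glmQLFit with 4 group means, and quasi-likelihood F tests of both effects and their difference, with Benjamini-Hochberg adjustment over 23572 genes with calls at an adjusted p under 0.05, two-sided. The SE is the absolute log2 fold change divided by the square root of F. Likeness was a 95% interval of the difference within 1.5-fold. Named genes were the 4 targets and, among genes with a symbol, a mean of 5 CPM or more and libraries of a group within 3-fold (0.1 CPM added), the 5 highest and 5 lowest shared genes by the smaller effect, the 6 highest and 6 lowest differences, 3 opposite genes each way, and up to 3 members of each list described (lowest p of the difference or, for shared changes, largest smaller effect); other members are given with their list, and PTGS2, PGR, SPRR1B, CEACAM5, VIM and CDKN1A were singled out after their values were seen. Members, the 25 gene lists and 3 marker lists were chosen with earlier results of these data known.

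Alternatives were RLE, upper-quartile and total-count scaling, no filter, at least 10 counts in every library, DESeq2 1.42.0, limma-voom (limma 3.58.1), a fit of all 21 libraries, the replicate number as a block, a minimum log2 change of 1, each library's GC trend removed (50 bins) and leaving out each library. The numbers did not pair the libraries: deviations of same-numbered libraries correlated at -0.0474 to 0.00564. On counts simulated from the 23572 genes with 200 differences of effects of 2-fold, 38.5% were called, 72% of the 100 at 5 CPM or more. Of the 81 calls 4.94% were false, and a simulation with no changed gene gave 0 calls. The simulated libraries varied by each gene's fitted spread alone, with no library set apart and no trend over GC content. These rates therefore need not hold for the calls on the real libraries. Exon usage was not analysed here. Drawing was done with matplotlib 3.10.9.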

Additional observations from a re-analysis of the deposited data

Results flagged for a closer look

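A test of the difference itself found the 2 effects to differ for 2940 genes, of which 1968 were higher and 972 lower; every gene given here passed that test (edgeR adjusted p under 0.05), and its value is the difference of effects on the log2 scale. Among the targets and MYC it was 0.38 for SRSF7 and 0.51 for MYC. Among genes chosen for a shared change it was 1.54 for TRPC6, 0.73 for IL13RA2 and 0.84 for HMCN1. Among the genes eligible for naming, the highest values were those of CEACAM6 (4.47), FABP4 (3.69), FBN2 (3.30), S100A8 (3.26), STC1 (3.00) and S100A9 (2.90). The lowest among these eligible genes were ANKRD1 (-1.69), PMEPA1 (-1.66), GREM1 (-1.51), MAGEC2 (-1.48), KIT (-1.40) and PAPSS2 (-1.36). WWC1, named for its opposite effects, gave -0.75.

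Among epithelial genes the value was 1.85 for KRT4, 1.63 for AGR2 and 1.32 for CLDN8. Ribosome and spliceosome genes were below 0: WDR43 (-0.68), NOP14 (-0.52), NOLC1 (-0.52), RPLP0 (-0.39), RPS12 (-0.38), RPS16 (-0.35), SNRPF (-0.40), SNRPC (-0.37) and PRPF19 (-0.39). Stress genes gave 1.17 for ASNS, 0.70 for HERPUD1 and -0.63 for PPP1R15A, and TGF-beta genes gave -0.87 for ID4, -0.98 for BMP4 and -0.65 for SMAD6. Interferon-stimulated genes gave 1.05 for OAS1, 0.55 for STAT2 and 0.46 for OAS2. Proteases and channels gave 1.34 for MMP28, 1.07 for MMP1, 0.57 for PLAU, -0.52 for SERPINB2, 2.16 for KCNMA1 and 1.04 for ORAI3. Cytokines gave 0.69 for IL1A, 0.84 for CXCL8 and 0.66 for IL1B, and the integrin ITGA6 gave 0.43. No explanation was tested for any of them.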

How the results depend on the processing

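Of 114 results on named genes, 101 kept their direction and their side of the threshold in each of the alternatives compared that gave a value. The minimum log2 change of 1, which left 142 of the 2940 differences called, was left out of this comparison. In the other alternatives 24 values lost a call, and 1, the difference on SRSF3, gained one with the GC trend removed. Those that turned direction were not called in any setting: the difference of effects on SRSF2 was 0.0149 with total counts alone, the effect of 1xSRSF3 on SRSF2 was 0.0148 with DESeq2, 0.0148 with RLE scaling and between -0.0616 and 0.0338 when single libraries were left out, and the effect of 1xSRSF3 on SRSF7 was -0.0360 with total counts alone. The 2940 differing genes (1968 higher, 972 lower) numbered 6194 (3017 and 3177) with the GC trend removed and 4453 (1755 lower) with all 21 libraries, and 620 were lower with upper-quartile scaling. A minimum log2 change of 1 left 142 (136 and 6), with 334 for 3XSR, 249 for 1xSRSF3, 59 shared and 6 opposite genes. Opposite genes numbered 729 with the GC trend removed and 490 with all 21 libraries. The replicate block gave 1839 differing genes (1295 and 544), 1788 of them among the 2940, and 195 opposite genes, and among named genes the differences on RPLP0 and PRPF19 lost their calls; the numbers are not shown to pair the libraries, and no library correlated best with its own number. Leaving out 1 library at a time gave between 1821 and 4912 differing genes, between 1329 and 2736 higher, between 486 and 2176 lower and between 177 and 579 opposite. Each of these fits used 11 libraries and so had fewer residual degrees of freedom, and the cause of the changes was not tested. The median half-width of the interval of the difference was 0.51 over all genes and 0.26 at 5 CPM or more; depth itself was not varied.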
